A study of Mus musculus with 4 samples.

Results

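The genes described here are 10 genes of the G1 phase of the cell cycle: the D-type cyclin genes Ccnd1, Ccnd2 and Ccnd3, the E-type cyclin gene Ccne1, the kinase genes Cdk4, Cdk6 and Cdk2, and the inhibitor genes Cdkn1a, Cdkn1b and Cdkn2a. They were chosen by symbol, all 10 were present among the 23238 gene symbols of the count files, and all 10 passed the filter on low counts. RNA sequencing had been run as 4 libraries from mammary gland tumours of female FVB mice aged 14 weeks. These mice carry PyMT, the polyoma virus middle T oncogene. Of these libraries 2 were labelled Nr1d1+/+;PyMT and 2 were labelled Nr1d1-/-;PyMT, so PyMT is shared by both groups and the Nr1d1 genotype is the only labelled difference. Nr1d1 encodes REV-ERBα, a nuclear receptor that represses transcription within the circadian clock. The labels name neither the promoter that drives PyMT nor the part of Nr1d1 that the null allele lacks. Nor do they name the animals and tumours behind each library. So p-values here reflect how far these samples differ from each other, and that spread may be purely technical.

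In G1, D-type cyclins bind CDK4 or CDK6 and the complexes phosphorylate the retinoblastoma protein RB and its relatives, which otherwise hold E2F transcription factors in check. Cyclin E with CDK2 carries this on into S phase. The CIP/KIP inhibitors p21 (Cdkn1a) and p27 (Cdkn1b) bind cyclin-CDK complexes, while Cdkn2a encodes both the INK4 inhibitor p16INK4a and, from another first exon, p19ARF, which protects p53. Cyclin D1 is known for its part in the growth of the mammary epithelium and of mammary tumours, and Cdkn1a and Wee1 are known as clock-controlled genes in liver.

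Ccnd1 and Cdk4 were called higher in the libraries labelled Nr1d1-/-, each by about 1.49-fold, and 0 members were called lower (0 also at an unadjusted p under 0.05, and 0 with DESeq2 or limma-voom). The remaining 8 members did not pass the threshold. A gene was called at an adjusted p under 0.05 by the quasi-likelihood test of edgeR, and 16.5% of the 14801 tested genes were called higher and 17.3% lower, so that 2 of 10 members higher lies near the background. The median log2 fold of the members was 0.20, against -0.01 over all tested genes. Levels are CPM, counts relative to the TMM-scaled library total, and each log2 fold is Nr1d1-/- over Nr1d1+/+ with its standard error (SE). Values of single libraries are given in the order Nr1d1+/+ replicates 1 and 2, then Nr1d1-/- replicates 1 and 2.

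Total counts lay between 15905404 and 19116279 per library. Transcripts of Nr1d1 itself were at 20.2 and 10.3 CPM against 10.6 and 12.8 CPM, which overlap (log2 fold -0.37, SE 0.35, edgeR adjusted p = 0.436), so the genotypes rest on the labels. TMM scaling factors were 1.11 and 1.18 against 0.859 and 0.895, and scaling by library size alone moved the median log2 fold of all genes from -0.01 to -0.38. Rn45s, the ribosomal RNA precursor, took 2.94% and 3.39% against 4.36% and 7.64% of the counts. Nr1d1-/- replicate 1 stood apart in skeletal muscle transcripts, as described with the inhibitors below.

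**Figure D1:**
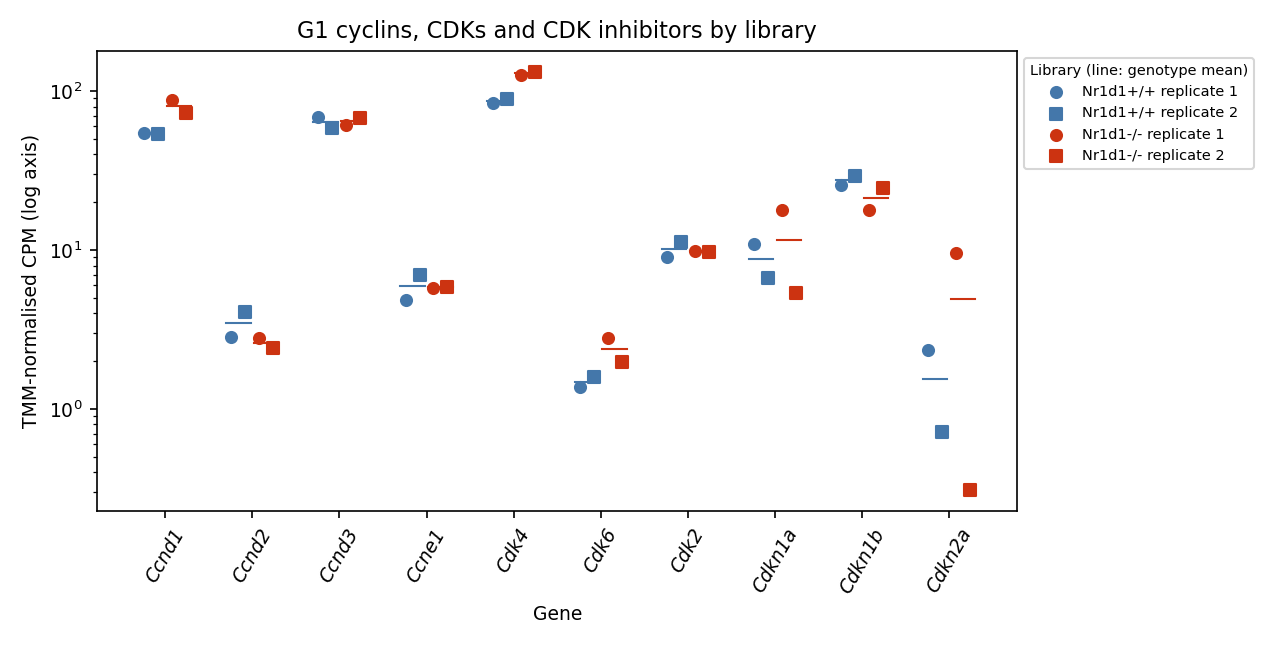
TMM-normalised CPM (log axis) of the 10 genes in each library, with circles for replicate 1, squares for replicate 2, blue for Nr1d1+/+ and red for Nr1d1-/-, and a short line at each genotype mean. Ccnd1 and Cdk4 separate by genotype, while the Cdkn2a values of the Nr1d1-/- libraries are the highest and the lowest of the 4.

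Among the D-type cyclins, Ccnd1 was the member that rose. Ccnd1 (ENSMUSG00000070348.5, chromosome 7 from 144929931 to 144939925, minus strand, GRCm38) had 54.9 and 53.6 CPM in the Nr1d1+/+ libraries and 88.6 and 73 CPM in the Nr1d1-/- libraries. Both Nr1d1-/- libraries lay above both Nr1d1+/+ libraries, with the wider spread among the Nr1d1-/- pair. The mean went from 54.3 ± 0.888 to 80.8 ± 11 CPM (SD, n = 2), a log2 fold of 0.57 (SE 0.19, 95% interval 0.147 to 0.9996, edgeR adjusted p = 0.0437).

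Ccnd3, the D-type cyclin prominent in lymphocytes and muscle, had 68.4, 59.1, 61.4 and 68.2 CPM, so its values overlapped between genotypes. Its log2 fold was 0.02 (SE 0.19, 95% interval -0.40 to 0.45, edgeR adjusted p = 0.931), and that interval leaves room for a change of either sign. The sign turned under other processing, to -0.35 with library size only and -0.10 with GC and length trends removed. Ccnd2 was scarce, at 2.84, 4.07, 2.79 and 2.42 CPM, from 38 to 85 counts. Both Nr1d1-/- values lay just below the lower Nr1d1+/+ value, but the log2 fold of -0.41 had a 95% interval from -1.41 to 0.59 (SE 0.44, edgeR adjusted p = 0.498). At this depth a change of Ccnd2 was not detectable.

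The 3 D-type cyclins can be set against one another inside each library, which removes the scaling between libraries. Counts were divided by the length of the longest annotated transcript (3740 bases for Ccnd1, 6330 for Ccnd2 and 3858 for Ccnd3). Ccnd1 then made up 44.7% and 47.3% of the D-type cyclin signal in the Nr1d1+/+ libraries and 59.1% and 51.9% in the Nr1d1-/- libraries. Ccnd3 made up 54% and 50.6% against 39.8% and 47%, and Ccnd2 1.37% and 2.12% against 1.10% and 1.02%. Scaled by these transcript lengths, Ccnd3 was the larger part in both Nr1d1+/+ libraries and Ccnd1 in both Nr1d1-/- libraries. None of these 3 shares overlapped between the genotypes. All exons span 4709 bases for Ccnd1 and 8775 for Ccnd3, and with those lengths Ccnd1 would be the larger in every library. As shares of undivided counts, Ccnd1 had 43.5% (95% exact Clopper-Pearson interval 41.6 to 45.4) and 45.9% (43.9 to 47.9) against 58% (55.8 to 60.1) and 50.8% (48.8 to 52.9). These intervals cover counting error only. The difference in the Ccnd1 share was 9.53 percentage points between the means of 46 ± 1.87% and 55.5 ± 5.09% (SD, n = 2). A two-sided exact permutation test gave p = 0.333, the smallest that 2 against 2 samples allow, so these shares cannot reach a threshold of 0.05.

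**Figure D2:**
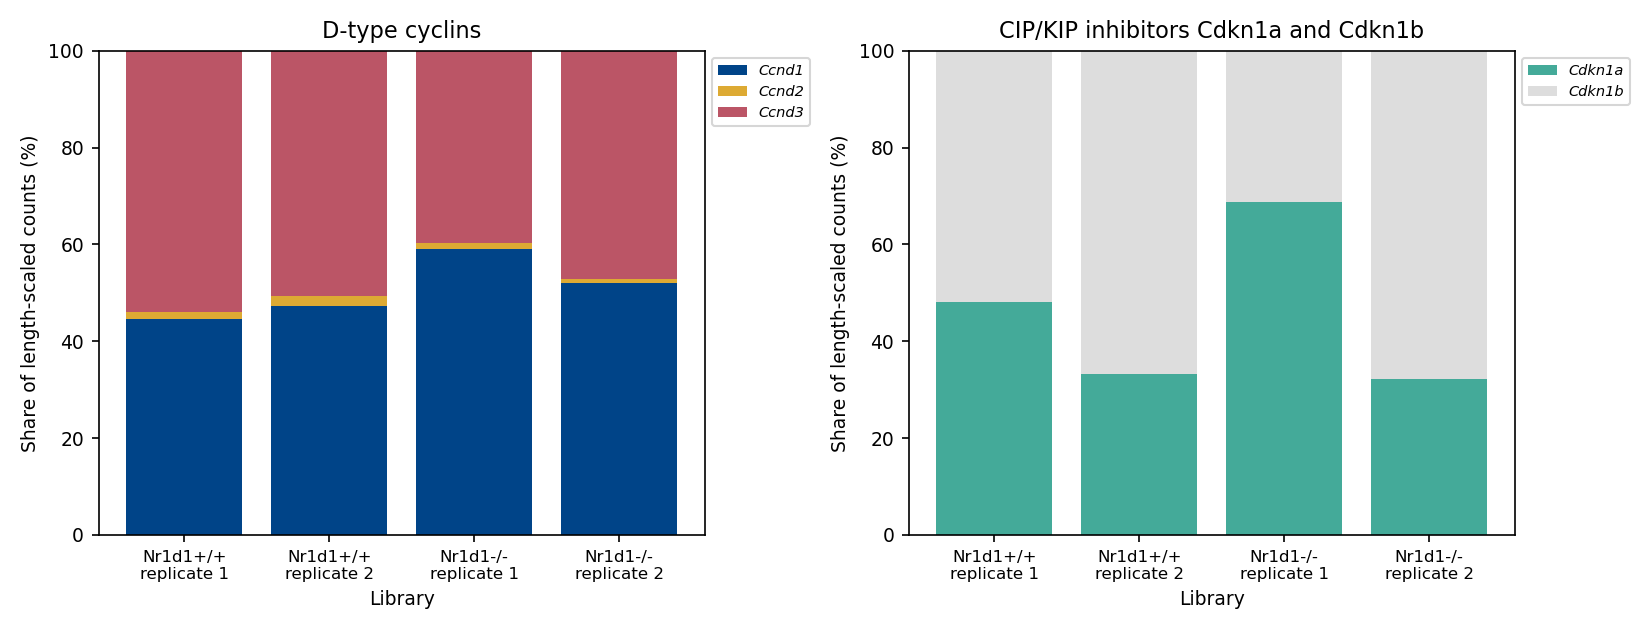
Share of length-scaled counts (%) in each library for the D-type cyclins (left) and for the inhibitors Cdkn1a and Cdkn1b (right). The Ccnd1 part is larger in both Nr1d1-/- libraries than in either Nr1d1+/+ library, and the Cdkn1a part is larger in replicate 1 of each genotype than in replicate 2.

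Ccne1, the cyclin that activates CDK2, had 4.87, 6.94, 5.79 and 5.89 CPM. The Nr1d1-/- values lay between the Nr1d1+/+ values. Its log2 fold of -0.01 had a 95% interval from -0.82 to 0.79 (SE 0.36, edgeR adjusted p = 0.978), so changes of either sign lie within the interval. Its paralog Ccne2 had 13.8, 15.1, 14.7 and 12.5 CPM and did not pass either (log2 fold -0.09, edgeR adjusted p = 0.805).

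Of the kinases, Cdk4 was the one called. Cdk4 (ENSMUSG00000006728.12, chromosome 10 from 127063534 to 127067920, plus strand) had 84.4 and 90 CPM in the Nr1d1+/+ libraries against 126.9 and 132.8 CPM in the Nr1d1-/- libraries. The replicates of each genotype were close together and the genotypes did not overlap. The mean went from 87.2 ± 3.93 to 129.8 ± 4.16 CPM (SD, n = 2), a log2 fold of 0.57 (SE 0.17, 95% interval 0.19 to 0.96, edgeR adjusted p = 0.0306). Exons of Tspan31, a tetraspanin gene on the opposite strand, overlap 641 of the 3249 exonic bases of Cdk4. The library kit is a stranded one, but no source used here says if strand entered the counting, so reads in the overlap cannot be told apart and both genes are uncertain. Tspan31 had 73.9 and 61.3 against 105.3 and 107 CPM and was also called higher (log2 fold 0.65, SE 0.18, edgeR adjusted p = 0.0254). Ccnd1 shares 1100 of its 4709 exonic bases with Oraov1 on the opposite strand. Oraov1 had a lower level of 8.24 to 11.5 CPM and did not pass (log2 fold 0.26, edgeR adjusted p = 0.524). Smaller overlaps with protein-coding genes on the opposite strand lie in Ccnd3 (Bysl, 361 of 8775 exonic bases) and Cdk2 (Pmel, 34 of 6219). Neither Bysl (log2 fold 0.29, edgeR adjusted p = 0.302) nor Pmel (-0.43, edgeR adjusted p = 0.228) passed.

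Cdk6, the other partner of the D-type cyclins, was close to the floor of detection, with 29, 33, 38 and 32 counts or 1.37, 1.58, 2.79 and 1.99 CPM. Both Nr1d1-/- values were above both Nr1d1+/+ values, yet the log2 fold of 0.68 carried an SE of 0.50 (95% interval -0.47 to 1.82, edgeR adjusted p = 0.324). Scaled by transcript length, Cdk4 was 99.6% to 99.7% of the summed Cdk4 and Cdk6 signal in every library. Cdk2 had 9.04, 11.2, 9.9 and 9.74 CPM, with the Nr1d1-/- values between the Nr1d1+/+ values, and a log2 fold of -0.04 (SE 0.29, 95% interval -0.70 to 0.62, edgeR adjusted p = 0.922).

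The promoter of Cdk4 is shown because Cdk4 is the called member with an entry in the RefSeq promoter table (GRCm38.p6), which matched 8 of the 10 members, and that of Cdk6 because it is the paralog that did not pass. Each window runs from 250 bases before to 50 after the annotated start. Capitals mark CACGTG, the E-box bound by MYC and by clock factors of the bHLH family, and AGGTCA, the half-site bound by REV-ERB and ROR receptors, on either strand. The motifs were picked after the sequences had been seen.
Cdk4 (chr10:127063285-127063584, plus strand): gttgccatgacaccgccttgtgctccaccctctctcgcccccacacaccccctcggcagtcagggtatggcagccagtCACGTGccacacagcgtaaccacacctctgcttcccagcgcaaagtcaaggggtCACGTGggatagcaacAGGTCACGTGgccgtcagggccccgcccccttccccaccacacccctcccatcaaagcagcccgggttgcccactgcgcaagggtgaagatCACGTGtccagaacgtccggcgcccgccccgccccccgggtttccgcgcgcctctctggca
Cdk6 (chr5:3343643-3343942, plus strand): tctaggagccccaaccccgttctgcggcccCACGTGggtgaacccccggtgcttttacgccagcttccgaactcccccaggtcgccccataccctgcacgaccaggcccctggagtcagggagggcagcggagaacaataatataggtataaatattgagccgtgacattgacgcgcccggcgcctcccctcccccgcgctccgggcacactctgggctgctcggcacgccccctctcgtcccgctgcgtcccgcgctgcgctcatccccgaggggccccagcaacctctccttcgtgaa
The Cdk4 window holds 4 copies of CACGTG and 1 of AGGTCA, which overlaps one of the E-boxes, and the Cdk6 window holds 1 copy of CACGTG. At least 1 CACGTG occurs in 7.15% of the 32851 promoter windows of this length and at least 4 occur in 8 of them, or 0.0244%. The cut of 4 was taken from the Cdk4 window, which is among those 8, so this share is no test of Cdk4. AGGTCA occurs in 16.3%. None of the other matched members has CACGTG in its window, and Ccnd3 and Cdkn2a each have AGGTCA in 1 of their 2 windows. A match is a description of letters and shows no binding. As levels of factors that bind these letters, Myc fell from 52.3 ± 7.04 to 28.1 ± 4.58 CPM, which is -0.90 ± 0.22 (SE) as a log2 fold (edgeR adjusted p = 0.0148), and Bhlhe40, a clock repressor, from 61.8 ± 3.99 to 27 ± 5.14 CPM, which is -1.19 ± 0.21 (SE) as a log2 fold (edgeR adjusted p = 0.00489).

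None of the 3 inhibitors passed the test, and Cdkn1a and Cdkn2a varied more within Nr1d1-/- than between genotypes. Cdkn1b, which encodes p27, had 25.9, 29.4, 17.8 and 24.5 CPM, with both Nr1d1-/- values below both Nr1d1+/+ values. Its log2 fold was -0.38 (SE 0.24, 95% interval -0.93 to 0.17, edgeR adjusted p = 0.251). Scaled by library size alone, Cdkn1b was called lower (log2 fold -0.76, edgeR adjusted p = 0.0431), while removal of GC and length trends turned the sign (0.05, edgeR adjusted p = 0.9).

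Cdkn1a, which encodes p21, had 10.9 and 6.70 CPM in the Nr1d1+/+ libraries and 17.9 and 5.34 CPM in the Nr1d1-/- libraries. Replicate 1 of Nr1d1-/- was the highest and replicate 2 of Nr1d1-/- the lowest of the 4. The replicates differed 1.63-fold within Nr1d1+/+ (95% counting interval 1.32 to 2.03) and 3.35-fold within Nr1d1-/- (2.61 to 4.34), against a fitted difference between genotypes of 1.30-fold (log2 fold 0.38, SE 0.51, edgeR adjusted p = 0.596). Without Nr1d1-/- replicate 1 the log2 fold was -0.73, and without Nr1d1-/- replicate 2 it was 1.003 (edgeR adjusted p = 0.245 and 0.0653). As a share of the length-scaled signal of Cdkn1a and Cdkn1b, Cdkn1a had 48% and 33.3% against 68.7% and 32.3%, so these shares overlapped too. REV-ERBα is known to repress Cdkn1a in liver, and at this spread neither a rise nor a fall of Cdkn1a was detectable between the genotypes.

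Cdkn2a spread furthest. It had 50 and 15 counts in the Nr1d1+/+ libraries and 131 and 5 counts in the Nr1d1-/- libraries, or 2.37, 0.718, 9.60 and 0.31 CPM. The library order was that of Cdkn1a: Nr1d1-/- replicate 1 on top, then Nr1d1+/+ replicate 1, Nr1d1+/+ replicate 2 and Nr1d1-/- replicate 2. Replicate 1 exceeded replicate 2 by 3.29-fold in Nr1d1+/+ (95% counting interval 1.82 to 6.32) and by 31-fold in Nr1d1-/- (12.9 to 96.9). Among all tested genes the size of the replicate difference of Cdkn2a, in log2 CPM, was above that of 98.1% of genes in Nr1d1+/+ and 99.8% in Nr1d1-/-. The log2 fold between genotypes was 1.62 with an SE of 1.05 (95% interval -0.77 to 4.02, edgeR adjusted p = 0.261). It turned to -2.29 without Nr1d1-/- replicate 1 (edgeR adjusted p = 0.148) and passed at 2.61 without Nr1d1-/- replicate 2 (edgeR adjusted p = 0.0105). In that fit Nr1d1-/- is the 1 library with the muscle transcripts described below. Whenever a library is left out, its genotype keeps 1 sample, which is assumed to vary like the other genotype.

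The start sites of Cdkn2a are shown because the deposited count is 1 number per symbol and cannot say which of its transcripts was made. Capitals mark TTCCCGC or TTGGCGC on either strand, short forms of the site bound by E2F factors.
Cdkn2a first exon of p19ARF (chr4:89294570-89294869, minus strand): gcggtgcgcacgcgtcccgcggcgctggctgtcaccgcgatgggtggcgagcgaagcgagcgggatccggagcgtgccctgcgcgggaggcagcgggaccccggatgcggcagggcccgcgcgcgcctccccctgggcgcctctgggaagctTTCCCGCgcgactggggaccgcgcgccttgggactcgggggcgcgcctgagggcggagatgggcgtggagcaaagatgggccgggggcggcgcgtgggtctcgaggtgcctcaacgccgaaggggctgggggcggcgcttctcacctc
Cdkn2a first exon of p16INK4a (chr4:89282143-89282442, minus strand): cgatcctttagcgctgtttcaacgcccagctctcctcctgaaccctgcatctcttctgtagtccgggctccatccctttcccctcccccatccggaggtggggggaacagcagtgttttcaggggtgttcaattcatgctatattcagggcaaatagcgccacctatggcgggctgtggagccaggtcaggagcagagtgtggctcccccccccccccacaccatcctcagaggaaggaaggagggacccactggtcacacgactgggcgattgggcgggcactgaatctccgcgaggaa
The first window holds 1 such match and the second none, and 6.81% of all windows hold at least 1. Cdk2 has 2 matches in its window, and the other matched members have none.

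Skeletal muscle markers were high in the library in which Cdkn1a and Cdkn2a were highest. The summed level of 5 skeletal muscle markers was 2.22, 1.29, 515 and 2.92 CPM, so Nr1d1-/- replicate 1, the library with the highest Cdkn1a and Cdkn2a, was also the only one with muscle transcripts in quantity (Acta1, the muscle actin, at 148 CPM). All 3 tested muscle markers were called higher, on that library alone. The 5 adipocyte markers summed to 24.7 and 45.2 against 118 and 88.3 CPM, with Lep at 0 in both Nr1d1-/- libraries and 2 of 4 tested called higher. The part of these cells in the Cdkn1a and Cdkn2a values was not tested. In bulk tumour RNA, fewer cells of a type and less RNA per cell cannot be told apart.

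The labelled tissue had its epithelial markers, and the other marker lists moved as follows, where 16.5% of all tested genes were called higher and 17.3% lower. Luminal markers summed to 6165 and 5332 against 9838 and 9030 CPM, with 3 of 6 called higher and 1 lower, and basal markers to 128 and 139 against 294 and 347 CPM, with 2 of 4 called higher and 1 lower. Red blood cell markers summed to 453 and 581 against 2016 and 2194 CPM, with all 5 called higher. Macrophage markers summed to 74.5 and 95.2 against 151 and 208 CPM, with 1 of 5 called higher, and fibroblast markers to 573 and 1038 against 1012 and 1064 CPM, with 1 of 6. Endothelial markers ran from 35.5 to 64 CPM with 2 of 5 called higher. T cell markers summed to 12.7 and 14.7 against 20.2 and 18.7 CPM, with 1 of 6 called higher. Neuronal markers summed to 5.87 and 5.36 against 11.6 and 9.49 CPM, with none of 2 tested called. B cell markers stayed at or under 1.25 CPM in sum and none was tested. Most of the luminal sum lay in Krt8, Krt18 and Krt19, while Cdh1 was called lower and 2 luminal markers did not pass. Once GC and length trends were removed, 1 of 6 luminal markers was called higher, where 11.6% of all genes were. Most of the macrophage rise lay in C1qa, at 28.1 and 29.7 against 90.3 and 131 CPM. Ccnd1 and Cdk4 were higher in both Nr1d1-/- libraries, as were the luminal, basal, red blood cell, macrophage, T cell, B cell, adipocyte, neuronal and muscle sums. The fibroblast and endothelial sums overlapped between genotypes. The part of any of these cells in the Ccnd1 and Cdk4 values was not tested.

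**Figure D3:**
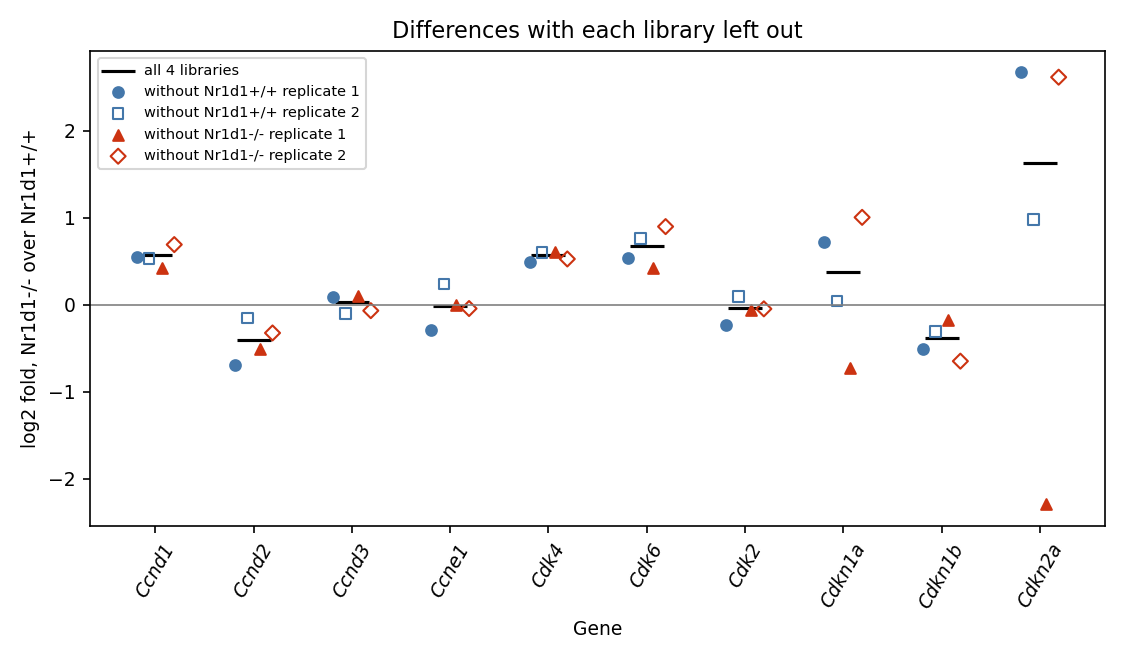
Log2 fold of Nr1d1-/- over Nr1d1+/+ for each of the 10 genes with all 4 libraries (black bars) and with each library left out in turn (symbols). Ccnd1, Cdk4 and Cdk6 stay above 0 in each of these fits, whereas Cdkn2a runs from -2.29 to 2.67 and Cdkn1a from -0.73 to 1.003.

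The calls of Ccnd1 and Cdk4 depended on single libraries and on scaling, while the sign did not turn in any of the 16 settings run. Ccnd1 was called in 10 of them (adjusted p from 0.0282 to 0.451) and Cdk4 in 9 (0.0197 to 0.416). Without each library in the order above, the log2 fold of Ccnd1 was 0.54, 0.53, 0.43 and 0.69 (edgeR adjusted p = 0.171, 0.2, 0.179 and 0.0381), and that of Cdk4 was 0.48, 0.60, 0.60 and 0.52 (edgeR adjusted p = 0.185, 0.124, 0.0598 and 0.0867). So 0, 0, 0 and 2 members were called higher in these fits (Ccnd1 and Cdkn2a in the last), in which 9.57%, 6.75%, 12% and 15.3% of genes were. Once GC and length trends were removed, Ccnd1 was called (0.67, edgeR adjusted p = 0.0294) and Cdk4 was not (0.27, edgeR adjusted p = 0.255), with 11.6% of genes called higher and 11.7% lower. With library size only, both had a log2 fold of 0.19 (edgeR adjusted p = 0.451 and 0.416), and 0 members were called higher and 1 lower, where 8.65% of genes were called higher and 29.8% lower.

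**Figure D4:**
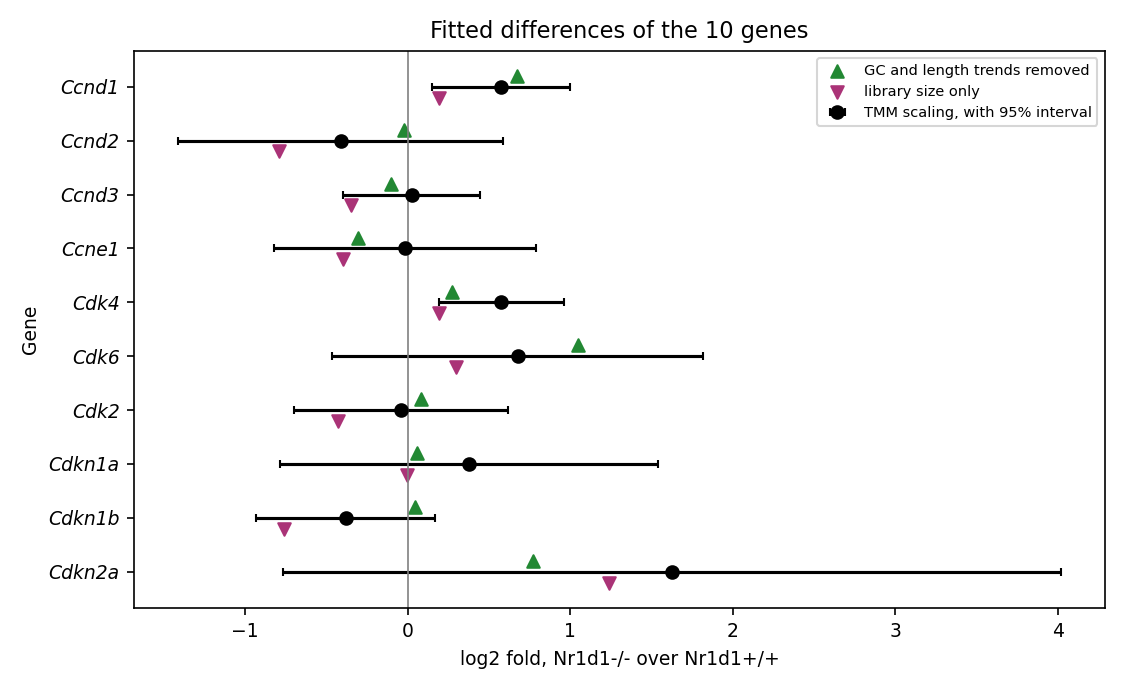
Log2 fold of Nr1d1-/- over Nr1d1+/+ for each gene with TMM scaling and its 95% interval (black), with GC and length trends removed (green) and with library size only (purple). The intervals of Ccnd1 and Cdk4 lie above 0, those of the other 8 genes cross 0, and the purple points lie to the left of the black ones by about the shift of all genes.

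Leaving the test aside, the CPM of the genotypes did not overlap for 5 of the 10 members. Ccnd1, Cdk4 and Cdk6 lay higher in both Nr1d1-/- libraries, where 34.4% of tested genes did, and Ccnd2 and Cdkn1b lay lower, where 36.2% did. Per 1000 bases of transcript, the order of the mean levels over the 4 libraries began with Cdk4 at 52.9 CPM per 1000 bases. Ccnd1 at 18.1 and Ccnd3 at 16.7 followed on the same scale, with overlapping libraries. Cdkn1b at 5.36, Cdkn1a at 4.91, Cdkn2a at 3.63, Cdk2 at 3.05 and Ccne1 at 2.94 came next, and neighbours among these overlapped between libraries. Ccnd2 at 0.478 and Cdk6 at 0.168 had the lowest means, and every library had Ccnd2 above Cdk6. The genes of most similar pattern over the 4 libraries, among the 10832 tested genes whose mean reached 5 CPM, were Slc5a2, Ncapd2 and Impdh2 for Ccnd1 (Euclidean distances of centred log2 CPM of 0.036, 0.0363 and 0.0462) and Ldlrad4, Ythdf2 and Aoah for Cdk4 (0.0253, 0.0388 and 0.0392).

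All 3 genes of the pocket proteins, the targets of the D-type cyclin kinases, were called lower. Rb1, the retinoblastoma gene, had 60.7 and 64.1 against 15.9 and 22.8 CPM (log2 fold -1.68, SE 0.23, edgeR adjusted p = 0.00246). Rbl2, which encodes p130, had 33.6 and 33 against 4.62 and 5.52 CPM (log2 fold -2.71, SE 0.26, edgeR adjusted p = 0.00132). Rbl1, which encodes p107, had 13.1 and 14.7 against 5.13 and 5.34 CPM (log2 fold -1.41, SE 0.30, edgeR adjusted p = 0.00908). In each of them both Nr1d1-/- libraries lay well below both Nr1d1+/+ libraries. Rb1 and Rbl2 were called lower in all settings run, with log2 folds from -2.06 to -1.21 and from -3.09 to -2.36.

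In the list of pocket proteins, E2F, DP and MuvB genes, 3 of 18 tested were called higher and 7 lower, with a median log2 fold of -0.94. Of all tested genes 16.5% were called higher and 17.3% lower, so the 3 higher lie near the background. E2f1, an activating E2F, had 32.1 and 32.1 against 61.6 and 48.5 CPM and rose by 0.78 on the log2 scale (SE 0.21, edgeR adjusted p = 0.0206), but by 0.41 once GC and length trends were removed (edgeR adjusted p = 0.171). The DP gene Tfdp1, whose product pairs with E2F, fell from 68.2 ± 20 to 23.2 ± 4.77 CPM (log2 fold -1.55). MuvB genes went both ways. Lin9 fell from 16.4 ± 2.26 to 5.71 ± 1.05 CPM (log2 fold -1.52). Lin37 was called higher, from 18.2 ± 0.654 to 47.3 ± 21.5 CPM (log2 fold 1.37, edgeR adjusted p = 0.0112). With trends removed Lin37 did not pass (0.78, edgeR adjusted p = 0.0997). The remaining MuvB genes of the list did not pass in the main fit. The numbers of genes called in this list changed with the library left out, in fits where 1 genotype keeps 1 sample. With trends removed 2 were called higher and 6 lower, where 11.6% and 11.7% of all genes were. With library size only it was 1 and 9, where 8.65% and 29.8% of all genes were.

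**Figure D5:**
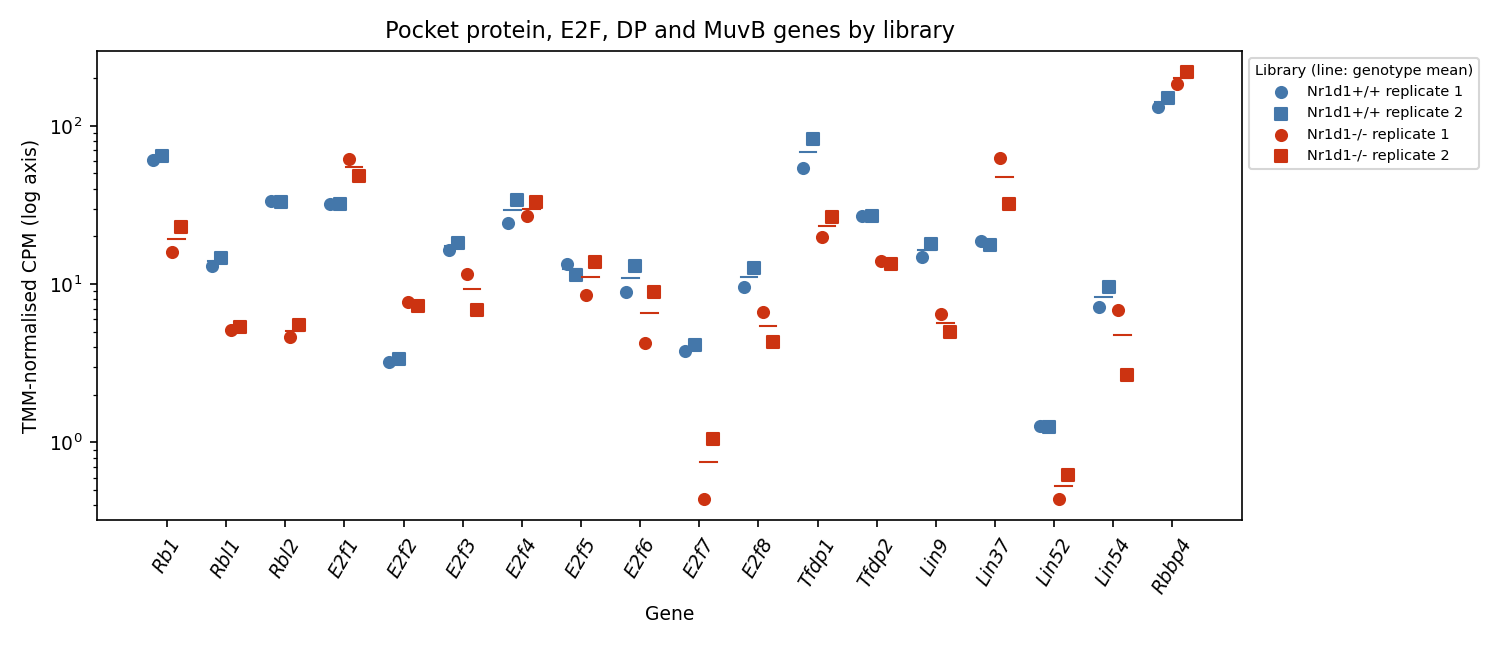
TMM-normalised CPM (log axis) of the pocket protein, E2F, DP and MuvB genes in each library, drawn as for the members. Rb1, Rbl1 and Rbl2 lie lower in both Nr1d1-/- libraries, while E2f1 and E2f2 lie higher.

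Of 27 S-phase targets of E2F, 6 were called higher, 2 lower and 19 did not pass, with a median log2 fold of 0.06. Their summed level was 984 and 1042 against 1302 and 1297 CPM, higher in both Nr1d1-/- libraries. Most of that rise lay in Tyms and Pola2, so the sum does not speak for the other genes. Tyms, thymidylate synthase, rose from 74.3 ± 6.54 to 208 ± 17 CPM (log2 fold 1.49), Pola2, a subunit of DNA polymerase alpha, from 97.7 ± 5.74 to 188 ± 42.8 CPM (0.94) and Mybl2 from 12.5 ± 1.59 to 25 ± 3.04 CPM (1.01), while the helicase gene Mcm4 fell from 34.4 ± 6.48 to 17.1 ± 1.22 CPM (-1.01). With library size only, 2 were called higher and 5 lower, where 8.65% and 29.8% of all genes were. Both counts also changed with the library left out. Of 21 genes of G2 and mitosis, 0 were called higher and 4 lower by edgeR, with a median of -0.44. Of all tested genes 16.5% were called higher and 17.3% lower, so the 4 lower lie near the background. At an unadjusted p under 0.05 there was 1 higher, and DESeq2 and limma-voom called 0 higher. Nek2 fell from 13.3 ± 0.763 to 2.50 ± 0.419 CPM (log2 fold -2.40), Bub1b of the spindle checkpoint from 31.4 ± 10.5 to 11.2 ± 1.92 CPM (-1.49), Cenpe from 41 ± 4.82 to 24.3 ± 4 CPM (-0.76) and Kif11 from 31.4 ± 9.89 to 17.4 ± 1.99 CPM (-0.85). Mki67, the Ki-67 gene that marks cycling cells, had 177, 268, 192 and 120 CPM, which overlap (log2 fold -0.52, edgeR adjusted p = 0.17). Without each library in turn 4, 1, 4 and 2 mitosis genes were called lower, and with library size only 10 were. Once GC and length trends were removed, 1 was called higher and 3 lower, where 11.6% and 11.7% of all genes were. The median was then -0.17, and neither Cenpe (-0.26, edgeR adjusted p = 0.375) nor Kif11 (-0.38, edgeR adjusted p = 0.307) passed.

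Of 11 tested other cyclins, CDKs, inhibitors and activators of this transition, 1 was called higher and 1 lower (median log2 fold -0.09). Over all tested genes 16.5% were called higher and 17.3% lower. Cdkn1c, which encodes the third CIP/KIP inhibitor p57, had 6.43 and 5.51 against 12.6 and 12.1 CPM, and its log2 fold was 1.05 (SE 0.30, edgeR adjusted p = 0.0266). Removal of GC and length trends left 0.46 (edgeR adjusted p = 0.271). Wee1, a kinase that inhibits CDKs, had 13.8 and 17 against 6.45 and 7.69 CPM (log2 fold -1.12, SE 0.29, edgeR adjusted p = 0.0196). The calls of Cdkn1c and Wee1 both depended on the library left out. Cdkn2b, which lies beside Cdkn2a and encodes p15INK4b, had 3.26, 3.21, 7.04 and 3.16 CPM, with Nr1d1-/- replicate 1 again the highest (edgeR adjusted p = 0.316). It was singled out after its values were seen. Of 10 genes that set the turnover of cyclins D and E and p27, 2 were called higher and 4 lower (median -0.12). The same shares of all genes, 16.5% and 17.3%, stand beside these counts. Fbxw7, the ubiquitin ligase part that targets cyclin E, rose from 45.7 ± 0.791 to 71.4 ± 3.12 CPM (log2 fold 0.64) and Fbxo31, which targets cyclin D1, from 13.3 ± 2.75 to 25.6 ± 4.39 CPM (0.94). Cul3 fell from 148 ± 15.7 to 79.2 ± 10.2 CPM (-0.90) and Gsk3b, a kinase that marks cyclin D1 for export and decay, from 50.5 ± 3.83 to 27.6 ± 0.556 CPM (-0.87). With trends removed, 1 of these genes (Fbxw7) was called higher and 0 lower, where 11.6% and 11.7% of all genes were. Fbxo31 was then at 0.76 (edgeR adjusted p = 0.0609), Cul3 at -0.36 (0.168) and Gsk3b at -0.45 (0.113). How many of these turnover genes were called higher or lower also depended on the library left out.

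Upstream of Cdkn1a, Trp53, the p53 gene, had 100.1, 63.5, 92.7 and 66.7 CPM, so that replicate 1 was higher in each genotype, as for Cdkn1a (log2 fold -0.04, edgeR adjusted p = 0.921). Among 19 tested p53 target genes other than Cdkn1a, 3 were called higher and 5 lower, where 16.5% and 17.3% of all tested genes were. The median log2 fold of these targets was -0.20. Zmat3 rose from 73.4 ± 34.8 to 303 ± 87.2 CPM (log2 fold 2.05) and the cell death gene Bax from 21.3 ± 3.52 to 50.6 ± 5.24 CPM (1.25), while Trp53inp1 fell from 31.1 ± 3.66 to 13.4 ± 4 CPM (-1.22), Ccng1 from 85.8 ± 15.7 to 41 ± 13 CPM (-1.07) and Mdm2, the ligase that degrades p53, from 50.2 ± 3.14 to 31.6 ± 0.984 CPM (-0.67). With trends removed 1 was called higher and 1 lower, where 11.6% and 11.7% of all genes were. Of these 5 genes only Zmat3 then passed, with Bax at 0.27 (edgeR adjusted p = 0.355), Trp53inp1 at -0.65 (0.102), Ccng1 at -0.69 (0.0887) and Mdm2 at -0.47 (0.0952). The numbers of p53 targets called higher and lower also changed with the library left out. Of 21 tested transcription factors known to act on Ccnd1, Cdkn1a or Cdkn1b, 2 were called higher and 10 lower (median -0.90). The shares of all tested genes were again 16.5% and 17.3%. Stat3 fell from 307 ± 25.5 to 89.6 ± 9.30 CPM (log2 fold -1.78), Jun, which activates Ccnd1, from 105 ± 1.74 to 36.5 ± 1.36 CPM (-1.52) and Nr1d2, the paralog of Nr1d1, from 37.2 ± 6.08 to 11.7 ± 1.71 CPM (-1.67), while Klf5 rose from 18.9 ± 3.84 to 75.6 ± 15.4 CPM (1.99). How many of these factors were called higher or lower also varied with the library left out.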

How the data were processed

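Tumour RNA was taken up in Trizol and turned into stranded libraries (Clontech SMARTer), per the labels' protocols. The submitters' processing notes name TopHat and mm10. What the authors deposited are whole-number counts, 1 per symbol and library. For the counting program, its annotation and its strand setting, the sources used here give nothing. Of 23238 symbols, 22873 matched GENCODE M21 (GRCm38, the assembly of mm10).

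Counts were filtered with filterByExpr (minimum count 10, 14801 genes left), scaled by TMM and compared between genotypes, with no other term, by the quasi-likelihood F test in edgeR 4.0.16 (bias-adjusted estimate) in R 4.3.3, with Benjamini-Hochberg adjustment over all tested genes. Intervals of log2 folds use the moderated degrees of freedom. DESeq2 1.42.0 and limma 3.58.1 (voom) were alternatives. Removal of GC and length trends used natural splines with 5 degrees of freedom per library, passed as offsets. The fit was tested on simulated data. Figures were drawn with matplotlib 3.10.9.

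The members and lists were chosen with earlier results of these data known. Genes named are the members, up to 4 called genes per list by lowest p, Nr1d1, E2f1, Rb1, Trp53, Myc, Mdm2 and Mki67, and the 3 genes nearest in pattern to each called member. Rbl1, E2f2, Lin37, Ccne2, Cdkn2b, Bhlhe40, Acta1, Lep, Krt8, Krt18, Krt19, Cdh1 and C1qa fall outside this rule. They were chosen after their values were seen, as were the promoter motifs. Tspan31, Oraov1, Bysl and Pmel are named because they overlap members.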

Additional observations from a re-analysis of the deposited data

How the results depend on the processing

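The number of members called higher was 2 and moved to 0 with library size only, 0 without a filter on low counts, 1 with the older quasi-likelihood estimate of edgeR and 1 with GC and length trends removed. It ran from 0 to 2 with each library left out. Over all genes, 2446 were called higher and 2565 lower, against 1281 and 4410 with library size only, and 1470 and 1036 were called higher without Nr1d1+/+ replicate 1 and 2. The number called lower was 0 and became 1 with library size only. With upper quartile or DESeq2 size factors, DESeq2, limma-voom, a mean of at least 5 CPM, an adjusted p of 0.1, and without Rn45s and small structured RNAs, 2 were called higher. With the replicate number as a block (replicate block), 2 members were called higher and 0 lower. The labels do not say if replicate numbers pair samples across genotypes. The differences between replicates 1 and 2 of both genotypes had a correlation of 0.026 over genes. That value covers all genes together and does not show if some of them share an effect of the replicate.

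Signs of members that did not pass turned as follows, with ranges over the libraries left out in turn. Ccnd3 had -0.35 with library size only, -0.0051 with no filter, -0.10 after removal of trends, and from -0.10 to 0.096 on leaving out a library. Ccne1 had 0.043 with upper quartile, 0.03 at a mean of 5 CPM, 0.011 with limma-voom, and from -0.29 to 0.24 on leaving out a library. Cdk2 had 0.014 with upper quartile, 0.081 after removal of trends, and from -0.24 to 0.095. Cdkn1a had -0.0039 with library size only and ran from -0.73 to 1.003. Cdkn1b had 0.048 after removal of trends, and Cdkn2a ran from -2.29 to 2.67. Trp53 had 0.013 with upper quartile, 0.0045 at a mean of 5 CPM, and ran from -0.36 to 0.28, and Nr1d1 from -0.80 to 0.14. The cause was not tested. The difference in the Cdk4 share of Cdk4 and Cdk6 was -0.0273 percentage points and -0.148 with undivided counts. Depth limits Cdk6 and Ccnd2, whose highest counts were 38 and 85. Cdkn2a had 5 to 131 counts and a replicate spread beyond its counting intervals. A minimum mean of 5 CPM leaves these 3 genes out.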
